A study of Danio rerio with 15 samples.

Results

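Genes of the sarcomere and of muscle contraction were followed through sorted cells of the zebrafish trunk. The set held the genes whose platform symbol begins with the name of a muscle myosin, myosin light chain, myosin-binding protein, troponin, tropomyosin, sarcomeric actin or actinin, titin, nebulin, parvalbumin, calcium pump or myogenic factor, or of a few other muscle families. This name rule, which used no measured value, took 66 of the 8793 genes on the array, with 80 of the 15502 probe sets tested. Each gene was read through its brightest probe set, by the mean of the 15 arrays, and 9 of the 66 genes had more than 1 probe set. By known role the set split into 8 thick filament genes, 12 thin filament genes, 6 genes of the Z disc and titin, 15 genes of calcium handling, 3 assembly factors, 7 myogenic transcription factors, 6 genes best known from the heart and 9 genes grouped here as non-muscle, which share a muscle gene's name. This last grouping does not exclude a use of some of these genes in muscle.

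The sarcomere is the repeating unit of striated muscle, in which myosin thick filaments slide along actin thin filaments. Calcium released from the sarcoplasmic reticulum binds troponin on the thin filament, tropomyosin moves aside and myosin can pull. The calcium is then pumped back, and in fish fast muscle parvalbumin buffers it. Zebrafish somites form a superficial layer of slow fibres and a deep mass of fast fibres, and both types express their contractile genes within the first days of development. The neurons of the spinal cord lie between the somites and have no sarcomeres, although they do use non-muscle myosins, actinins and tropomyosins.

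Levels were measured at 27 hours post fertilization on the Affymetrix Zebrafish Genome Array, in embryos kept at 28.5 °C until 10 hours and at 32 °C from then on. A first group of 6 arrays held V1 interneurons, also called CiA cells, sorted from Tg(pax2a:GFP) embryos after the region of the pronephros had been cut away. A second group of 5 arrays held all spinal neurons, sorted from Tg(elavl3:EGFP) embryos, and the last group of 4 arrays held trunk cells of all types, sorted with no transgenic line named. All 3 came from the dissected trunk above the yolk extension, and their RNA was amplified in 2 rounds. The pax2a and elavl3 reporters mark cells by the activity of a gene, and fluorescence alone decided which cells were kept. The sources used here do not say how many embryos went into a sample. The labels call the replicates biological, so each p-value sets a difference against the spread between these samples. In the main fit that spread is shared over the 3 groups, and it includes the gap within the all-neuron arrays described below.

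The deposited values are log2 levels, so a difference of 1 is a factor of 2 in signal. The median of all values was 5.52, and no detection call was used here, so a level below that may not stand above background. In 16 of the 66 genes the mean of every group lay below it. A level is compared between arrays for 1 probe set, never between probe sets.

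The groups carried the markers of their labels. A list of 6 neuronal genes averaged 9.97 to 10.39 on the V1 arrays, 10.27 to 10.73 on the all-neuron arrays and 8.42 to 8.98 on the trunk arrays, and the 3 V1 genes on the list of V1 markers were higher in V1 cells than in both other groups by limma's test. Against all-neuron arrays 4 and 5 this held for en1b and pax2a, while slc32a1 differed by 0.27 (limma, adjusted p = 0.305). The sort itself used reporters of pax2a and of elavl3, which is on the neuronal list, so neither gene is an independent check of the labels. The all-neuron arrays did not form 1 set for muscle genes: the mean of the 66 genes was 7.07 to 7.21 on arrays 1 to 3 and 6.12 to 6.24 on arrays 4 and 5, against 5.92 to 6.48 on the V1 arrays and 8.22 to 8.39 on the trunk arrays. Arrays 1 to 3 were also lower than arrays 4 and 5 in the mean of the neuronal list (10.27 to 10.35 against 10.53 to 10.73) and higher in the mean of the lists of notochord genes (7.11 to 7.72 against 6.76 to 6.89) and skin genes (6.85 to 8.02 against 5.88 to 6.74). Gene by gene, arrays 1 to 3 all lay below in 3 of 6 neuronal genes, where 27% of all probe sets did. They all lay above in 4 of 7 notochord genes, each a collagen, and in 4 of 8 skin genes, where 19% of all probe sets did. The notochord list averaged 4.44 to 5.88 on the V1 arrays and 6.71 to 7.29 on the trunk arrays, and the skin list 7.11 to 8.02 and 8.09 to 8.92. Markers of the heart (myl7, tnnt2a and cmlc1) averaged 3.19 to 3.57 on every array. The red cell list averaged 7.97 to 9.54 on the V1 arrays, 4.45 to 4.79 on the all-neuron arrays and 8.24 to 9.08 on the trunk arrays. The part of these other cell types in the results below was not tested. In bulk samples such as these, fewer muscle cells and less muscle RNA per cell cannot be told apart.

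**Figure D1:**
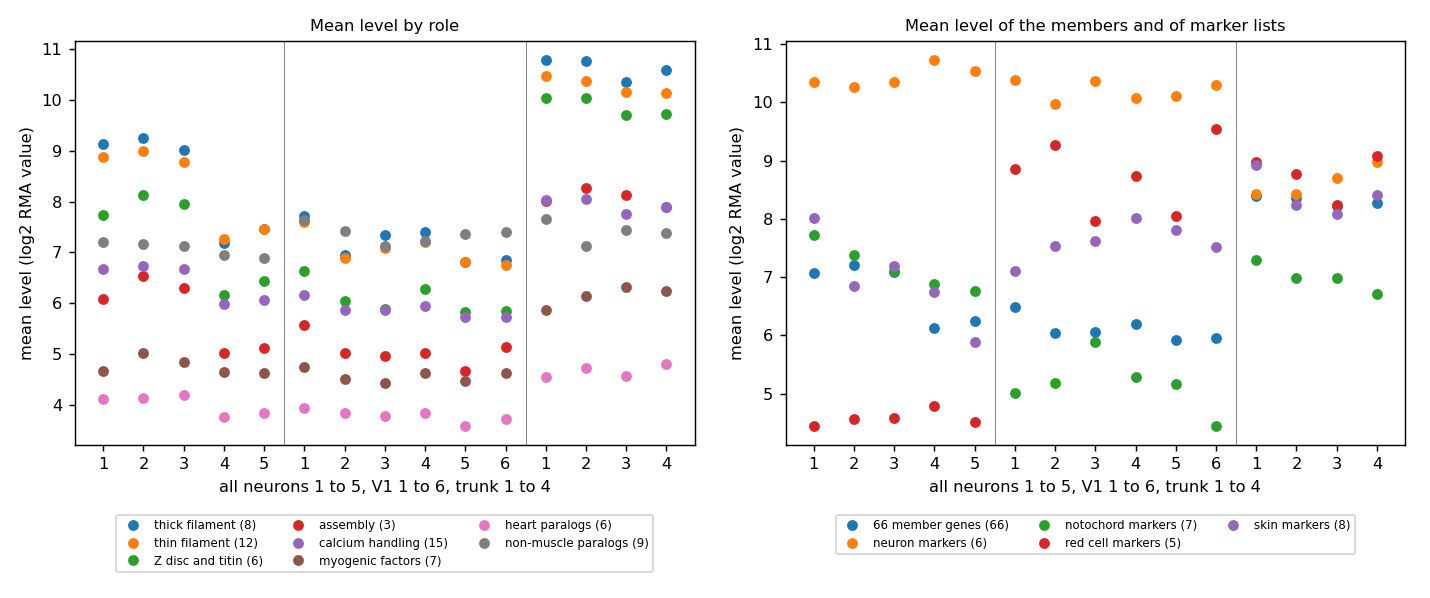
Mean log2 level (vertical axis) of each role of the muscle gene set and of the marker lists on each of the 15 arrays (horizontal axis). The position of 1 list can be compared between arrays but not with another list: the mean of all 66 genes was 8.22 to 8.39 on the trunk arrays, 7.07 to 7.21 on all-neuron arrays 1 to 3, 6.12 to 6.24 on all-neuron arrays 4 and 5 and 5.92 to 6.48 on the V1 arrays.

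The genes given as markers of fast muscle, mylpfa, tnni2a.4 and myoz1b, were read first. Every V1 array of these genes lay below all-neuron arrays 4 and 5. That held for 6 of the 26 thick filament, thin filament and Z disc genes, and the share over all probe sets is not given here. The regulatory light chain of fast myosin, mylpfa, read 12.12, 12.26, 12.05 and 11.86 on trunk arrays 1 to 4. On all-neuron arrays 1 to 5 it read 9.82, 10.39, 10.26, 8.34 and 8.52. Its V1 levels ran from 6.11 through a median of 7.25 to 7.94. The groups did not overlap, and all-neuron arrays 4 and 5 lay between arrays 1 to 3 and the V1 arrays. The V1 mean of 7.17 ± 0.64 (SD, n = 6) was 29.8-fold below the trunk mean of 12.07 ± 0.17 (SD, n = 4; limma, adjusted p = 1.88e-07), and the all-neuron mean of 9.47 ± 0.97 (SD, n = 5) was 6.08-fold below it (limma, adjusted p = 9.89e-05).

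Fast troponin I, tnni2a.4, the subunit that holds the thin filament off without calcium, read 11.43, 11.51, 11.44 and 11.20 on the trunk arrays. It read 9.60, 9.79, 9.48, 7.62 and 7.66 on the all-neuron arrays, and 5.45 to 7.37 with a median of 6.60 on the V1 arrays. The order of the groups and the gap within the all-neuron arrays were as for mylpfa. Myozenin myoz1b, which ties calcineurin to the Z disc, read 10.68, 10.53, 10.07 and 10.09 on the trunk arrays. Its all-neuron levels were 7.07, 7.56, 7.35, 5.47 and 5.60, and its V1 levels 4.47 to 5.22 with a median of 4.80. All V1 levels of myoz1b lay below the median of all values on the arrays. Between V1 and trunk cells, myoz1b differed by -5.53 on the log2 scale (limma, adjusted p = 1.95e-08), the largest difference of the 66 genes in that comparison.

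**Figure D2:**
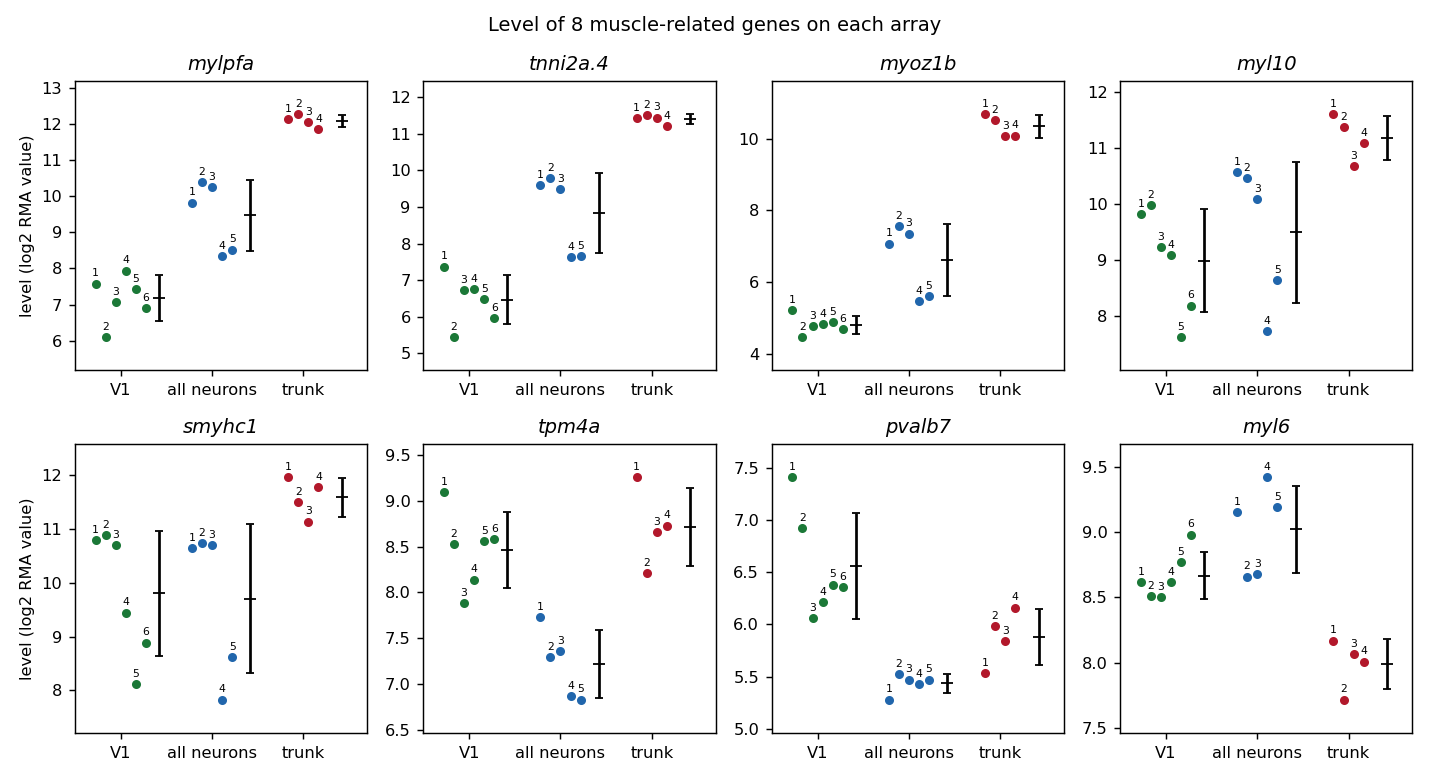
Log2 level (vertical axis) of mylpfa, tnni2a.4, myoz1b, myl10, smyhc1, tpm4a, pvalb7 and myl6 on each array, with the array's replicate number beside its point and the mean ± SD of each group in black. For mylpfa, all-neuron arrays 4 and 5 (8.34 and 8.52) stand apart from arrays 1 to 3 (9.82 to 10.39), and for myl10 the V1 arrays (7.62 to 9.98) overlap with the all-neuron arrays (7.72 to 10.57).

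Most contractile genes were far lower in both kinds of sorted neuron than in the whole trunk. Against trunk cells, 47 of the 66 genes were lower in V1 cells, 3 were higher and 16 did not pass the test, with a median log2 difference of -2.21 (range -5.53 to 0.82). Of all probe sets tested, 18% were lower and 22% higher in that comparison, and their median difference was -0.02. In all spinal neurons 49 of the 66 genes were lower than in trunk cells, 3 were higher and 14 did not pass the test, with a median of -1.58 (range -3.81 to 1.03), against 20.6% lower, 20.8% higher and a median of -0.03 over all probe sets. Both comparisons use the same 4 trunk arrays. In 46 genes every V1 array lay below every trunk array, where 11.5% of all probe sets did so, and in 47 genes every all-neuron array did, where 18.1% of all probe sets did.

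Thick filament genes were lower in both sorted groups without exception: 8 of 8 passed the test against trunk in V1 cells, with a median of -3.75, and 8 of 8 in all neurons, with a median of -2.32. The largest V1 differences of the role were those of mybpc2b, a fast myosin-binding protein C, at -5.02 (limma, adjusted p = 2.14e-07), and of myl1, the essential light chain of fast myosin, at -4.99 (limma, adjusted p = 1.77e-06). The fast heavy chain myhz1.3 read 12.92, 12.98, 12.83 and 12.80 in trunk cells, 11.89, 12.05, 11.90, 10.16 and 10.16 in all neurons, and 8.38 to 10.34 with a median of 9.76 in V1 cells, a V1 difference from trunk of -3.31. A further probe set, which the annotation assigns to 6 myosin heavy chain genes at once and which is not counted among the 66 genes, differed by -2.73 in V1 cells and by -1.40 in all neurons, so reads of these near-identical genes may be shared. The smallest thick filament difference was that of mybpha, a dim myosin-binding protein H gene below the array median in every group, at -0.70 in V1 cells and -0.54 in all neurons. In all neurons the difference of myl10 from trunk, -1.69 (limma, adjusted p = 0.0251), lost its call without all-neuron array 4 or 5 or trunk array 1 or 2 (adjusted p = 0.0598 to 0.0672). Without all-neuron arrays 4 and 5, 5 of the 8 thick filament genes were lower in all neurons, where 16.6% of all probe sets were.

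Among the thin filament genes 11 of 12 were lower than in trunk cells in V1 cells, and 11 of 12 in all neurons. The sarcomeric actin actc1b read 14.13, 13.68, 13.59 and 13.50 in trunk cells, 12.86, 13.11, 12.84, 11.29 and 11.69 in all neurons and 10.27 to 11.55 in V1 cells, so that the V1 mean was 6.55-fold below that of trunk. Its 2 bright probe sets gave differences of -2.71 and -2.74 in V1 cells, and its 2 dim ones, at levels near 3, gave -0.01 and -0.09. For actc1a the V1 difference from trunk was -2.92 and for acta1a -3.25. Actin copies are nearly alike in their coding sequence, so the split of signal between them is uncertain. Of the troponins, the fast troponin T genes tnnt3a and tnnt3b, which tie the complex to tropomyosin, differed by -5.00 and -4.93 in V1 cells. The calcium sensor of fast muscle, tnnc2.2, differed by -4.40. Not all troponins did so: the dim troponin I gene tnni2a.2, at 0.04 in V1 cells, did not pass the test. The difference of the dim tnni2a.3 was smaller than those of actc1a and acta1a. Nebulin (neb), the giant protein along the thin filament, differed by -4.73 in V1 cells and by -3.11 in all neurons. The tropomyosin tpm1, at 6.63 to 7.70 in trunk cells, differed by -1.79 and -1.36.

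Of the Z disc and titin genes 6 of 6 were lower than in trunk in V1 cells, and 5 of 6 in all neurons. Titin (ttn.2), the elastic spring of the sarcomere, read 12.22, 12.09, 11.94 and 11.85 in trunk cells, 9.93, 10.48, 10.26, 7.69 and 8.26 in all neurons and 7.12 to 8.59 in V1 cells. Its V1 difference from trunk was -4.27 and that of its second bright probe set -4.31. The actinin of fast muscle, actn3b, differed by -4.52 in V1 cells, and ldb3b, a PDZ and LIM protein of the Z disc, by -4.45. The exception was actn2b, whose trunk levels of 5.40 to 6.42 overlapped with the all-neuron levels of 5.32 to 6.13. Its V1 difference of -0.70 (limma, adjusted p = 0.0159) was lost without trunk array 1 or trunk array 2 (adjusted p = 0.0543 and 0.0767).

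The assembly factors klhl41b, a Kelch protein that stabilizes nebulin, and unc45b, the chaperone of myosin heads, were lower in both sorted groups. The level of klhl41b was 10.53 to 10.82 in trunk cells, 7.41, 8.09, 7.70, 5.42 and 5.76 in all neurons and 5.03 to 6.65 in V1 cells. Its difference of -3.81 in all neurons was the largest of the 66 genes in that comparison. For unc45b the differences were -3.95 in V1 cells and -2.94 in all neurons. The other gene of the role, klhl42, belongs to the rule by name and stayed at 3.10 to 3.47 on every array.

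Calcium handling was the role with the most varied genes. In each sorted group 10 of 15 were lower than in trunk and 2 were higher. The gamma subunit of the muscle calcium channel, cacng1a, read 9.06, 9.26, 9.69 and 9.32 in trunk cells, 5.56, 6.97, 6.35, 4.58 and 4.56 in all neurons and 3.60 to 5.25 in V1 cells. Its differences of -5.16 in V1 cells and -3.73 in all neurons were among the largest of the set. The parvalbumin pvalb2 read 12.57, 12.31, 11.91 and 12.00 in trunk cells, 10.20, 10.34, 9.96, 8.26 and 8.44 in all neurons and 6.23 to 7.75 in V1 cells, a V1 difference from trunk of -5.06. The pump of fast muscle reticulum, atp2a1, read 12.99, 12.62, 12.67 and 12.67 in trunk cells, 11.72, 11.56, 11.44, 9.12 and 9.30 in all neurons and 9.04 to 10.42 in V1 cells. Calsequestrin casq2, which stores calcium in the reticulum, had a V1 difference from trunk of -2.47, and atp2a1l one of -3.55. The genes that were higher were others: atp2a2b, of the pump family that non-muscle cells also use, was higher than in trunk by 0.82 in V1 cells and by 0.54 in all neurons, and pvalb7, a parvalbumin known in zebrafish from cerebellar Purkinje cells, was higher by 0.68 in V1 cells. The pvalb7 call against trunk was lost without trunk array 1, at 0.57 (limma, adjusted p = 0.0638). The dim pvalb6 was higher in all neurons by 0.34 (limma, adjusted p = 0.0343), a call lost without all-neuron array 1, 4 or 5 or trunk array 1 or 3 (adjusted p = 0.0596 to 0.105).

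Myogenic transcription factors, which commit cells to muscle and switch on the contractile genes, were lower in 6 of 7 cases in both sorted groups. The determination factor myod1 read 6.18, 7.15, 6.48 and 6.40 in trunk cells, 4.25, 5.63, 4.76, 3.80 and 4.17 in all neurons and 3.49 to 4.19 with a median of 3.74 in V1 cells. Its log2 differences from trunk were -2.75 in V1 cells (limma, adjusted p = 1.49e-06) and -2.03 in all neurons (limma, adjusted p = 3.5e-05). Myogenin (myog), which drives fusion and differentiation, read 6.52, 6.75, 8.11 and 7.44 in trunk cells but 4.12 to 4.66 in all neurons and 3.86 to 5.33 in V1 cells, with differences of -2.72 in V1 cells and -2.84 in all neurons. On all-neuron arrays 1 to 3 myog read 4.33, 4.66 and 4.51, and on arrays 4 and 5 it read 4.21 and 4.12. The early factor myf5 differed by -0.93 and -1.15 at levels of 2.98 to 4.44 throughout, and myf6 by -0.16 in both groups, which did not pass the test.

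The MEF2 factors, which act with the myogenic factors in muscle and also in neurons, had smaller log2 differences from trunk than myod1 and myog. The level of mef2d was 7.67 to 8.45 in trunk cells, 6.57 to 6.92 in all neurons and 5.43 to 6.45 in V1 cells, with differences of -1.99 in V1 cells and -1.37 in all neurons. Its second probe set, at means of 4.01 to 4.13, differed by -0.09 and 0.03 and passed no test. For mef2ca the differences from trunk were -1.55 and -1.35, and for mef2aa -0.92 and -0.75.

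The heart genes were near the floor of the array in most cases. In myl7, tnnc1a and tnnt2a no difference passed the test in any comparison, and their levels stayed between 2.43 and 3.93. Against trunk 3 of the 6 were lower in each sorted group: tnnt2c by -2.43 in V1 cells and -1.97 in all neurons, mybpc3 by -1.88 and -1.28, and the dim myh7 by -0.54 and -0.53. A probe set annotated to both myh7 and myh7l differed by -0.21 in V1 cells (limma, adjusted p = 0.123) and by -0.17 in all neurons (adjusted p = 0.222). The myh7 calls therefore rest on 1 probe set. In trunk cells tnnt2c read 5.56 to 7.16 and mybpc3 6.98 to 8.12.

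Most of the non-muscle genes did not pass the test between V1 cells and trunk. Among the 9, myl9b was lower in V1 cells, at -1.05, 7 did not pass, and myl6, the essential light chain of non-muscle and smooth muscle myosin, was higher by 0.67 (limma, adjusted p = 0.00196). The myl6 levels were 8.17, 7.72, 8.07 and 8.01 in trunk cells, 9.15, 8.66, 8.68, 9.42 and 9.19 in all neurons and 8.50 to 8.98 in V1 cells. Here the trunk arrays were the lowest of the 15, and the all-neuron difference was 1.03 (limma, adjusted p = 5.73e-05). In all neurons 4 of the 9 were lower than in trunk: tpm4a by -1.50, myl9b by -1.27, actn1 by -0.66 and myl12.1 by -0.34. The myl12.1 call was lost without all-neuron array 3, 4 or 5 or trunk array 1 or 3 (limma, adjusted p = 0.0563 to 0.14). The second bright probe set of myl12.1 differed by -0.32 between all neurons and trunk and did not pass (limma, adjusted p = 0.178). The non-muscle heavy chain myh10 read 8.05 to 8.91 on the 15 arrays, and neither of its differences from trunk, 0.28 and 0.29, passed the test.

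**Figure D3:**
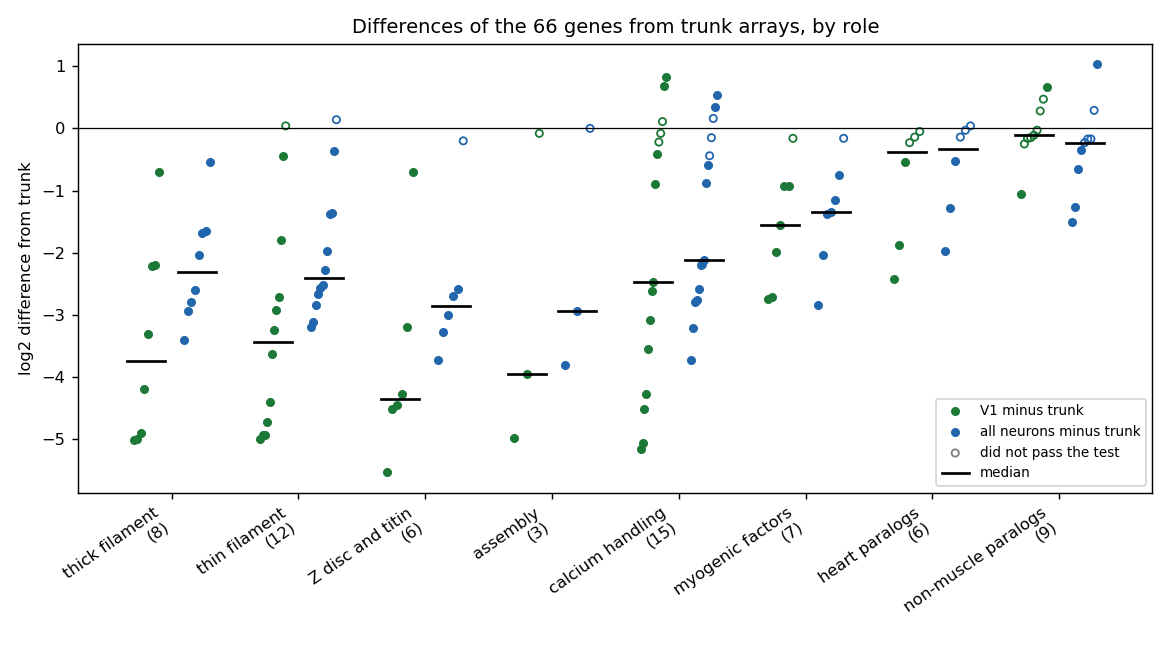
Log2 difference from trunk cells (vertical axis) of each of the 66 genes, by role (horizontal axis), for V1 cells and for all neurons. Filled points passed the test at adjusted p under 0.05, open points did not, and each bar is the median of the role: for the thick filament genes -3.75 in V1 cells and -2.32 in all neurons, for the non-muscle genes -0.11 and -0.23.

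V1 cells were next compared with all spinal neurons, the comparison of 1 interneuron class with the whole. In V1 cells 22 of the 66 genes were lower, 4 were higher and 40 did not pass the test, with a median of -0.43 (range -2.37 to 1.25). Of all probe sets 9.3% were lower and 12.7% higher, with a median of -0.01. The notochord list had 5 of 7 genes lower in V1 cells, with a median of -2.35 (-2.16 against all-neuron arrays 4 and 5). Of the skin list 2 of 8 were higher, the keratins krt8 by 2.06 and krt18a.1 by 1.55. The other 6 did not pass: krt4, krt5 and cldn1 differed by -0.38, -0.28 and -0.11, and tp63, cldni and epcam by 0.23, 0.72 and 1.52. Of the red cell list 5 of 5 were higher, with a median of 5.20. The part of these cell types in the muscle and non-muscle gene differences was not tested. In 10 of the 66 genes every V1 array lay below every all-neuron array, where 5.46% of all probe sets did so, and in 2 genes above, where 8.04% did. The largest differences were those of fast muscle genes: tnni2a.4 at -2.37 (SE 0.41, limma, adjusted p = 0.000615), pvalb2 at -2.31 (adjusted p = 0.00037), mylpfa at -2.29 (SE 0.38, adjusted p = 0.000398), myl1 at -2.19 (adjusted p = 0.00412), tnnt3b at -2.10 (adjusted p = 0.00115) and pvalb3 at -1.93 (adjusted p = 7.16e-05).

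These counts depended on which all-neuron arrays were used. Without arrays 1 to 3, that is against arrays 4 and 5, 7 of the 66 genes were lower in V1 cells and 5 higher, with a median of -0.07 (8.39% and 10.2% of all probe sets). Without arrays 4 and 5, 31 were lower and 2 higher, with a median of -0.66 (6.1% and 7.99% of all probe sets). All 3 of arrays 1 to 3 lay above both of arrays 4 and 5 in 45 of the 66 genes, and below in 7, where 19% of all probe sets lay above and 27% below. This split was known from earlier results on these genes and the labels do not give it, so it was described and not tested. Calls and p-values against either set of all-neuron arrays come from arrays set apart by these same genes. They describe how the calls depend on the arrays used and are no support of their own for a difference.

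Over all probe sets 9.3% were lower in V1 cells than in all neurons, and 8.39% against arrays 4 and 5. The thick filament genes had 5 of 8 lower in V1 cells than in all neurons, and 1 of 8 against arrays 4 and 5. That gene was mylpfa, at -1.26 (95% interval -2.00 to -0.51, limma, adjusted p = 0.0225). The second probe set of mylpfa differed by -0.70 against arrays 4 and 5 (limma, adjusted p = 0.0972), so this call rests on 1 probe set. Of the thin filament genes 7 of 12 were lower, and 2 against arrays 4 and 5: tnni2a.4 at -1.19 (interval -1.96 to -0.41, adjusted p = 0.0348) and tnnt3b at -0.85 (adjusted p = 0.036). The second probe set of tnni2a.4 differed by -0.83 against arrays 4 and 5 (limma, adjusted p = 0.0582), so that call too rests on 1 probe set. Nebulin was the widest case, with levels of 8.35, 8.78 and 8.33 on all-neuron arrays 1 to 3, 5.44 and 5.93 on arrays 4 and 5, and 5.23 to 6.24 in V1 cells. Its difference of -1.62 against all 5 arrays (adjusted p = 0.0301) became 0.06 against arrays 4 and 5 (interval -0.47 to 0.60).

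Of the Z disc and titin genes 4 of 6 were lower, and against arrays 4 and 5 it was myoz1b alone, at -0.73 (interval -1.15 to -0.30, limma, adjusted p = 0.0205). The shares of all probe sets that were lower are those given for the thick filament genes, 9.3% and 8.39%. The second bright probe set of ttn.2 differed by -0.95 between V1 cells and all 5 all-neuron arrays (adjusted p = 0.168), so the ttn.2 call rests on 1 probe set. Against arrays 4 and 5 the other 5 genes did not pass, among them actn3b at -0.29 (interval -0.96 to 0.39) and ttn.2 at -0.23 (interval -0.93 to 0.47). Of the assembly factors unc45b was lower, at -1.01 (adjusted p = 0.0348), and -0.09 against arrays 4 and 5. Calls against all 5 arrays that single arrays decided were those of unc45b, mybphb, neb, tnni2b.1, ldb3a, ttn.2 and actn1. They were lost without all-neuron array 1, 2 or 3 for the first 5 of these genes, without array 3 for ttn.2 (adjusted p = 0.0512) and without array 2, 3, 4 or 5 for actn1. V1 arrays also decided calls: array 5 those of unc45b, mybphb, neb, tnni2b.1, ldb3a and actn1, array 2 those of unc45b, neb, tnni2b.1, ldb3a and actn1, and array 6 those of neb, ldb3a and actn1. The unc45b call was lost too without V1 array 3 or 4, the ldb3a call without V1 array 3, and the actn1 call without V1 array 1 or trunk array 2 or 3. Over these fits adjusted p reached at most 0.131.

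**Figure D4:**
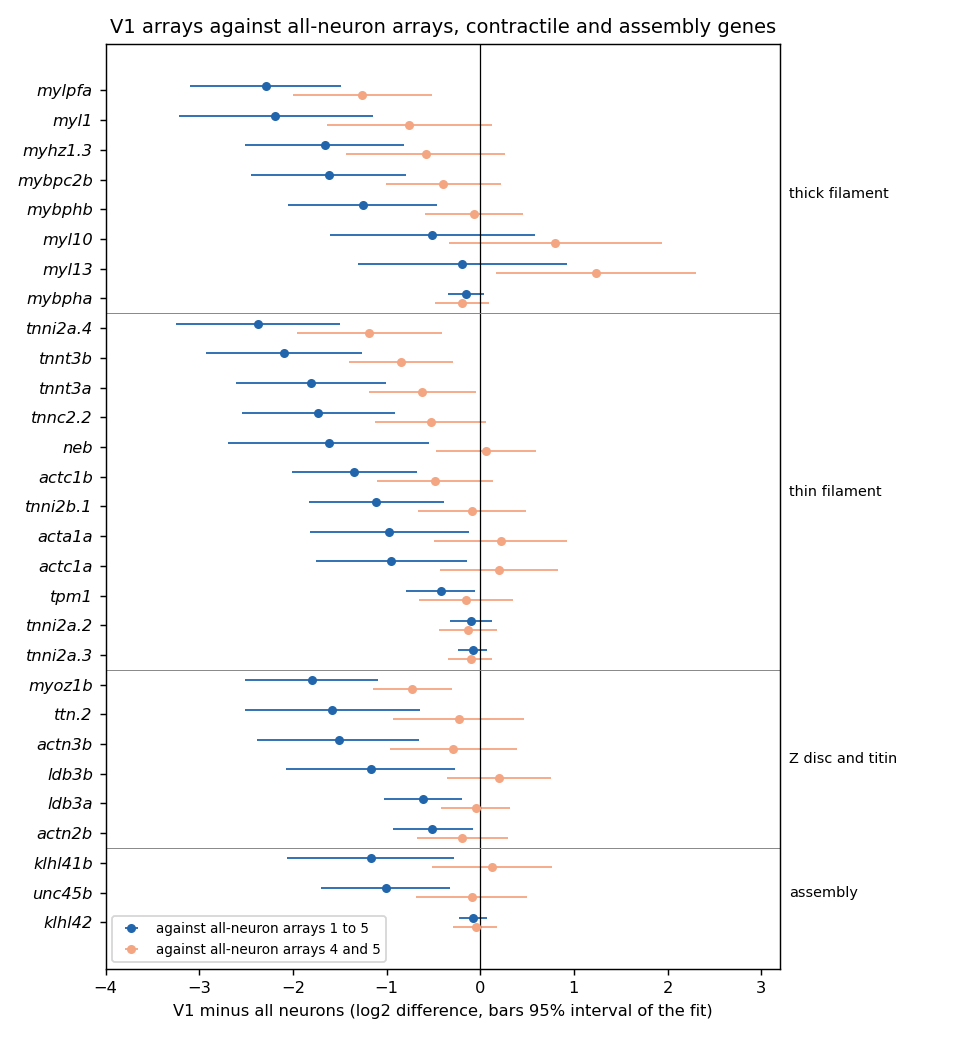
Log2 difference between V1 cells and all spinal neurons (horizontal axis), with its 95% interval, for each gene of the thick filament, thin filament, Z disc and assembly roles (vertical axis), against all 5 all-neuron arrays (blue) and against arrays 4 and 5 (orange). The difference of neb is -1.62 against 5 arrays and 0.06 against arrays 4 and 5, and that of mylpfa -2.29 and -1.26.

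Among the calcium handling genes 4 were lower in V1 cells than in all neurons (pvalb2, pvalb3, pvalb1 and cacng1a) and 1 was higher. Over all probe sets 9.3% were lower and 12.7% higher, and 8.39% and 10.2% against arrays 4 and 5. Against arrays 4 and 5, pvalb2 was lower by -1.22 (limma, adjusted p = 0.0184) and pvalb3 by -1.16 (adjusted p = 0.002), while pvalb1 at -0.69 (adjusted p = 0.0985) and cacng1a at -0.39 (adjusted p = 0.467) did not pass. The higher gene was pvalb7, at 6.06 to 7.41 with a median of 6.37 in V1 cells, 5.28, 5.52, 5.47, 5.43 and 5.47 in all neurons and 5.53 to 6.16 in trunk cells. Its difference was 1.12 against all 5 arrays (SE 0.20, adjusted p = 0.000696) and 1.11 against arrays 4 and 5 (adjusted p = 0.0185). No V1 array of pvalb7 overlapped with the all-neuron arrays, which lay within 0.24 of each other.

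Between the sorted groups 9.3% of all probe sets were lower in V1 cells and 12.7% higher. Of the myogenic factors 1 of 7 passed the test between the sorted groups. This was mef2d, lower in V1 cells by -0.62 (limma, adjusted p = 0.0158). Against arrays 4 and 5 it differed by -0.75 (adjusted p = 0.0501). The second, dim probe set of mef2d differed by -0.12 against all 5 arrays (limma, adjusted p = 0.34), so the mef2d call rests on 1 probe set. The difference of myod1 was -0.72 (adjusted p = 0.0649), that of myog 0.12 (adjusted p = 0.816) and that of mef2ca -0.20 (adjusted p = 0.597). Of the heart genes 0 of 6 passed limma's test, and 1 had an unadjusted p under 0.05, mybpc3 at -0.59 (adjusted p = 0.0652).

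Between V1 cells and all neurons, 12.7% of all probe sets were higher and 9.3% lower. Of the non-muscle genes 3 of 9 were higher in V1 cells than in all neurons, 6 did not pass and 0 were lower by limma's test (1 lower, myl6, at an unadjusted p under 0.05). Their median difference was 0.22, against 0.47 without all-neuron arrays 1 to 3 and 0.03 without arrays 4 and 5. Without arrays 4 and 5 the count was 1 higher, tpm4a, and 0 lower, where 7.99% of all probe sets were higher and 6.1% lower. The tropomyosin tpm4a, counted here with the non-muscle genes, read 7.88 to 9.10 with a median of 8.55 in V1 cells, 7.73, 7.29, 7.36, 6.87 and 6.83 in all neurons and 9.26, 8.21, 8.66 and 8.73 in trunk cells. V1 cells overlapped with trunk and not with all neurons, and the difference from all neurons was 1.25 (SE 0.22, limma, adjusted p = 0.000751). A second tropomyosin, tpm3, was higher by 0.64 (adjusted p = 0.0134), and the actinin actn1 by 0.52 (adjusted p = 0.0461). Against arrays 4 and 5 these differences were 1.62, 0.95 and 0.74, each past the test, and myl12.1 was higher by 0.47 (adjusted p = 0.0432) and myl6 lower by -0.64 (adjusted p = 0.00975). In that fit 10.2% of all probe sets were higher and 8.39% lower. The second bright probe set of myl12.1 differed by 0.39 against arrays 4 and 5 (limma, adjusted p = 0.273), so the myl12.1 call rests on 1 probe set.

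Not every bright contractile gene followed mylpfa within the sorted cells. The regulatory light chain myl10 read 11.60, 11.37, 10.68 and 11.08 in trunk cells and 10.57, 10.46, 10.08, 7.72 and 8.63 in all neurons. On V1 arrays 1 to 6 it read 9.82, 9.98, 9.22, 9.08, 7.62 and 8.18, so the ranges of the sorted groups overlapped. Its difference between them was -0.51 (SE 0.51, limma, adjusted p = 0.538), and 0.80 against arrays 4 and 5 (interval -0.33 to 1.94). The light chain myl13 was alike, at -0.19 (adjusted p = 0.846) and 1.24 against arrays 4 and 5 (interval 0.17 to 2.30, adjusted p = 0.105).

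The slow myosin heavy chain smyhc1, which the name rule did not take, was 10.80, 10.89, 10.70, 9.45, 8.12 and 8.89 on V1 arrays 1 to 6. It read 10.65, 10.74, 10.70, 7.83 and 8.62 in all neurons and 11.14 to 11.97 in trunk cells, and its difference between the sorted groups was 0.10 (SE 0.59, limma, adjusted p = 0.935). V1 array 2 held the highest V1 level of myl10 and smyhc1 and the lowest of mylpfa, tnni2a.4, myl1 (5.76, against 6.97 to 7.78 on the other V1 arrays) and myhz1.3 (8.38, against 9.07 to 10.34). Across the 66 genes V1 array 1 held the highest V1 level in 37 and V1 array 5 the lowest in 25. Among the 26 genes of the thick filament, thin filament and Z disc roles the lowest V1 array was array 5 in 9 genes, array 2 in 8, array 6 in 6 and array 3 in 3. No share over all probe sets is given for these counts of V1 arrays, so they cannot be told from a difference between whole arrays.

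Some of the genes are neighbours on the chromosome, by the gene order of the RefSeq annotation of assembly GRCz12tu, and the differences of neighbours from trunk are given side by side. The troponin I genes tnni2a.2, tnni2a.3 and tnni2a.4 follow each other with no protein-coding gene between them. Their V1 differences from trunk were 0.04, which did not pass the test, -0.45 and -4.94. The probe sets of tnni2a.2 and tnni2a.3 lay below the array median in every group, so they may not detect their gene. A probe set annotated to both tnni2a.4 and tnni2a.2 differed from trunk by -5.46 in V1 cells and by -3.35 in all neurons. The parvalbumins pvalb9, pvalb3 and pvalb2 also stand in a row, and their V1 differences from trunk were -0.41, -4.51 and -5.06. In the row of pvalb8, pvalb4, pvalb1 and pvalb5 these were -0.90, -2.61, -4.27 and -0.22, the last of which did not pass the test. The pair of myf6 and myf5, which lie side by side, read at most 4.44 on every array.

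Muscle genes outside the name rule were counted next. From a list of 75 such genes (synapse, triad, cytoskeleton, energy supply, ubiquitin ligases and mesoderm factors), 41 were measured. Against trunk 30 were lower in V1 cells and 1 higher, with a median of -3.12, where 18% of all probe sets were lower and 22% higher. In all neurons 31 were lower and 0 higher by limma's test, with a median of -2.37, where 20.6% of all probe sets were lower and 20.8% higher. At an unadjusted p under 0.05, 1 gene, the mesoderm factor msgn1, was higher in all neurons, by 0.30. The largest were chrne, a subunit of the muscle acetylcholine receptor (-5.27 in V1 cells and -4.36 in all neurons), the fast light chain mylz3 (-4.88 in V1 cells), nexilin nexn (-4.84 and -3.56) and the ubiquitin ligase trim63a (-4.79 and -4.20). Myoglobin mb, at 4.74 to 5.84 on all arrays, was the gene that was higher, by 0.58 in V1 cells (limma, adjusted p = 0.00142).

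Between V1 cells and all neurons 14 of these 41 genes were lower and 3 higher, with a median of -0.43, where 9.3% and 12.7% of all probe sets were. Against arrays 4 and 5, 1 was lower and 7 higher, with a median of -0.06 (8.39% and 10.2% of all probe sets). Without arrays 4 and 5, 22 were lower and 3 higher, with a median of -0.87 (6.1% and 7.99% of all probe sets). The gene still lower was the tropomyosin tpma (-2.05 against all 5 arrays, -1.04 against arrays 4 and 5, limma, adjusted p = 0.0114). The higher genes included both copies of sypl2, a membrane protein of the muscle triad. The level of sypl2b was 7.09 to 8.98 in V1 cells, 6.65, 6.90, 6.78, 6.05 and 6.30 in all neurons and 7.90 to 8.38 in trunk cells. Its V1 cells overlapped with trunk and lay above every all-neuron array, by a difference of 1.78 (SE 0.26, adjusted p = 0.000156), and sypl2a was higher by 1.45 (adjusted p = 0.000519). Against arrays 4 and 5 the higher genes were sypl2b (2.14), sypl2a (2.07), hspb8 (1.38), eno3 (1.37), flncb (0.99), eya1 (0.87) and mb (0.67). The list was drawn up with earlier results of these data known, so its counts are a description.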

How the data were processed

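Per the submitters' processing notes, the authors used Affymetrix Expression Console and RMA, and the deposited values lie on a log2 scale. Program versions, genome build and chip definition: not given in the sources used here. RMA compresses large differences, and the number of arrays limits the precision. The table held 15617 probe sets on 15 arrays. The 115 control probe sets were left out of the tests, and of the other 15502, 10795 carried 1 gene symbol, 135 several and 4572 none. All 66 genes matched a current symbol, and 3 probe sets with several symbols that matched the name rule were set aside.

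Group means over all 15 arrays were fitted with limma 3.58.1 in R 4.3.3 (lmFit, eBayes, 12 residual degrees of freedom). The two-sided moderated test was adjusted by Benjamini-Hochberg over all 15502 probe sets within a comparison, at 0.05. Tables and figures used Python 3.11.15 and matplotlib 3.10.9, and the fit was tested on simulated data. Genes and lists were chosen with earlier results of these data known. Named in full are the 3 fast muscle markers, the myogenic factors, bright genes of each role, the genes with the largest called differences, those against their role's direction and those in counts of 5 or fewer. Alternatives were another variance prior, fits of the compared groups alone, cyclic loess, equal medians, array weights, a dim filter, the replicate block, single arrays left out, either set of all-neuron arrays left out, a threshold of 0.01, a test against a log2 difference of 0.5, and the dimmest probe set. Leaving out trunk arrays 1 and 2 was added after seeing the data. The labels name no batch. No sequence was used here.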

Additional observations from a re-analysis of the deposited data

Results flagged for a closer look

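Of 198 checks of 1 gene in 1 group, 5 had an array far from the others of its group, and 0 of 27 checks of the role means did. Chance gives about 1 in 20 groups. The pump gene atp2a1 read 12.99 on trunk array 1, against 12.62 to 12.67 on the other trunk arrays. The parvalbumin pvalb3 read 4.98 on V1 array 4, against 4.37 to 4.59 on the other V1 arrays. On V1 array 3 the tropomyosin tpm3 read 9.35, against 9.92 to 10.25, and myf5 read 3.03, against 3.38 to 3.52. The heart light chain myl7 read 3.09 on all-neuron array 1, against 3.35 to 3.44 on the other all-neuron arrays.

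A control probe set of the array with no gene name used here read 8.02 on trunk array 1 and 8.16 on trunk array 2, against 5.63 to 5.71 on trunk arrays 3 and 4. It read 10.16 to 10.76 on the all-neuron arrays and 4.98 to 5.59 on the V1 arrays. Leaving out trunk arrays 1 and 2, a choice made after seeing the data, gave 44 genes lower and 2 higher in V1 cells than in trunk, with a median of -2.13. The share of all probe sets called in that fit is not given here.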

How the results depend on the processing

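Between V1 cells and all neurons, the 22 lower and 4 higher genes became 7 lower without all-neuron arrays 1 to 3 and 2 higher without arrays 4 and 5. They became 9 lower and 1 higher in the test against a log2 difference of 0.5, and 13 lower and 2 higher at a threshold of 0.01. Shares of all probe sets are given only for the main fits and those without either set of all-neuron arrays. Other counts in this section therefore cannot be told from a general change in calls. Against trunk, the median in V1 cells was -1.97 with the replicate block and -1.83 with the dimmest probe set per gene, against -2.21, and 0 genes were higher in limma's test against 0.5 (1, atp2a2b, at an unadjusted p under 0.05). In all neurons the median was -2.39 without arrays 1 to 3, against -1.58, and 1 gene was higher in the test against 0.5. Single genes changed sign for neb between V1 cells and all neurons (0.06 without arrays 1 to 3), and with the dimmest probe set for ttn.2 between V1 cells and all neurons (0) and for mef2d between all neurons and trunk (0.03). Apart from the fits and probe sets that these choices themselves change, the cause was not tested.

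With single arrays left out, the lower genes numbered 17 to 29 and the higher 3 to 5 between V1 cells and all neurons (median -0.58 to -0.3), 46 to 48 and 3 to 4 between V1 cells and trunk (median -2.4 to -2), and 47 to 50 and 2 to 3 between all neurons and trunk (median -1.72 to -1.4). Of the 198 gene differences, 194 kept direction and side of the threshold under cyclic loess, 191 with equal array medians, 196 with the other variance prior, 180 with array weights and 184 without trunk arrays 1 and 2. The replicate block kept 192 and gave 24 lower and 4 higher genes between V1 cells and all neurons. Same-numbered arrays correlated at -0.135 to 0.356 in their deviations from the group means, so the numbers were not taken as pairs. Dim genes limit what can be seen: 16 of the 66 lay below the array median in every group.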

Other observations

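Control probe sets for a skeletal actin, which entered no test, gave levels along the length of 1 transcript. The 3' probe set read 13.54 to 14.12 in trunk cells, 12.98, 13.17, 12.79, 11.26 and 11.66 on all-neuron arrays 1 to 5 and 10.29 to 11.64 in V1 cells, the order seen for actc1b. The middle probe set read 12.33 to 12.95 in trunk cells and 7.99 to 9.48 in V1 cells. On all-neuron arrays 1 to 5 it read 11.15, 12.03, 11.56, 9.57 and 10.03. A first 5' probe set read 6.03 to 6.60 in trunk cells, 5.25 to 5.73 in all neurons and 5.32 to 5.78 in V1 cells. In both sorted groups its levels lay on both sides of the median of all values, 5.52. A second 5' probe set read 8.44 to 9.54 in trunk cells, 7.26 to 8.61 in all neurons and 6.43 to 7.47 in V1 cells. The actin 3' level exceeded that of the first 5' probe set by 4.54 to 5.87 in V1 cells and 5.93 to 7.56 in all neurons. In trunk cells the excess was 7.08 to 7.71. The excess over the second 5' probe set is not given here, so these group ranges rest on the first alone. For GAPDH the 3' level exceeded the 5' level by 3.23 to 3.73 in V1 cells, 3.15 to 3.48 in all neurons and 2.18 to 3.15 in trunk cells. The part of this in the muscle gene differences was not tested.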
